A study of Mus musculus with 10 samples.

Results

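The 10 genes described here encode enzymes of glycolysis in red cell precursors: Hk1, Hk2, Gpi1, Pfkl, Tpi1, Gapdh, Pgk1, Bpgm, Pkm and Pklr. They were taken by symbol from a count table of 53465 Ensembl genes. All 10 were found, and all 10 were among the 14110 genes that passed the filter on low counts. RNA sequencing had measured erythroblasts, the nucleated precursors of red blood cells, from spleens of C57BL/6 mice 11 days after 5-FU, a cytotoxic drug that depletes dividing blood cells. Mice lacking both Nrf2 and the miR-144/451 cluster (Nrf2/miR-144/451-/-, here double-null) gave 3 libraries, miR-144/451-/- mice gave 2, Nrf2-/- mice gave 3 and wild type mice gave 2. All 4 groups shared the strain, the drug and the time point. The labels name no conditional allele, no age and no sex. They say that the cells were isolated with a Miltenyi Biotec kit and do not tie a library to a mouse, so each p-value rests on the spread among libraries, which may be technical.

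Glycolysis splits glucose into pyruvate and yields ATP. Mature red cells have no mitochondria and depend on it for energy, so the genes of its enzymes must be transcribed before the nucleus is lost. Red cells also run a side branch in which Bpgm, bisphosphoglycerate mutase, makes the phosphoglycerate compound that lowers the oxygen affinity of hemoglobin. Nrf2 is a transcription factor that acts through antioxidant response elements, and miR-144 and miR-451 are microRNAs abundant in erythroid cells.

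Library totals ranged from 13087827 to 15131036 counts. Mir144, the annotated gene of miR-144, had 0 counts in each double-null and each miR-144/451-/- library, against 9 to 16 counts in Nrf2-/- libraries and 12 and 17 counts in wild type libraries. Mir451a had 0 counts in all 10 libraries and checks nothing. Nfe2l2, the gene of Nrf2, had 683 to 843 counts in double-null, 1119 and 1468 in miR-144/451-/-, 668 to 727 in Nrf2-/- and 780 and 958 in wild type libraries. Counts per gene do not show which exons are deleted, so Nfe2l2 does not check the Nrf2 label. The Nrf2 target gene Nqo1, chosen after its values were seen, had 27.2 to 30.0 normalised CPM in double-null libraries against 41.8 and 44.6 in miR-144/451-/- libraries, and 32.8 to 38.7 in Nrf2-/- libraries against 43.4 and 70.2 in wild type libraries. Neither pair of groups overlapped, but the differences missed the threshold (edgeR adjusted p = 0.326 and 0.303). Counts of Xist and of Y-linked genes marked 3 libraries as female, namely replicate 3 of the double-null group and the 2 wild type libraries, and marked 7 as male. Sex and genotype therefore cannot be told apart in miR-144/451-/- against wild type or in Nrf2-/- against wild type without help from the double-null group. All 11 listed erythroid markers were detected, and their summed level ranged from 93464 to 162529 normalised CPM. That sum includes globin genes such as Hbb-bs, with a mean of 43846. Markers of other blood cell types were detected too, so detection alone does not check the labelled cell type.

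The sequences of the deleted microRNAs frame the comparisons below, because a microRNA pairs with messenger RNAs mainly through its seed. They are given from RefSeq (GRCm38.p6, plus strand of chromosome 11) with the seed, bases 2 to 8, in capitals.
mmu-miR-144-3p: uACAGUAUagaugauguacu
mmu-miR-144-5p: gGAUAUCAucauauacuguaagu
mmu-miR-451a: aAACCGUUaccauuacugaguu
The 3 seeds differ from each other. The longest annotated 3′ UTR of each of the 10 genes was searched for the 7 bases complementary to each seed, and 1 match was found. It lies in Pfkl, the liver-type phosphofructokinase gene, at base 1253 of a 1263-base 3′ UTR, near the annotated end of the transcript. The stretch shown is chr10:77986947-77986973 on the minus strand of GRCm38, with the bases that match the miR-144-3p seed in capitals.
Pfkl 3′ UTR site: ccaatagaatgtatatATACTGTaaaa
The same 7 letters, ATACTGT, occurred in 13.3% of 11710 tested genes with a 3′ UTR. The match to miR-451a, AACGGTT, occurred in 1.9%, and the match to miR-144-5p, TGATATC, in 5.7%, and neither occurred in the 10 genes. A letter match is a description of sequence and does not show that a site is used. Pfkl itself did not pass the test in any comparison, as described below.

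Levels were compared between genes on a per-length scale, FPKM as deposited by the authors. Bpgm was far above the rest, at 300.8 to 635.6 FPKM in the 10 libraries with a median of 447.1 FPKM, and its mean exceeded that of 99.6% of tested genes. It made up 68.9% of the summed FPKM of the 10 genes and 0.108% to 0.228% of all counts in a library. Hk1, the main hexokinase of red cells, which commits glucose to the cell, followed at 63.7 to 126.9 FPKM. Pgk1 (9.89 to 40.5 FPKM), Pklr (7.98 to 42.8 FPKM) and Tpi1 (8.11 to 38.2 FPKM) formed the next tier. They were not separated: Pgk1 exceeded Pklr in 6 of 10 libraries, and Pklr exceeded Tpi1 in 4. Pkm had 9.83 to 23.0 FPKM, Gapdh 5.62 to 18.5 FPKM and Gpi1 4.53 to 14.7 FPKM. Tpi1 was above Pkm in 8 libraries, Pkm above Gapdh in 7 and Gapdh above Gpi1 in 9. Pfkl had 3.01 to 6.85 FPKM, and Hk2, the hexokinase gene of muscle and of many proliferating cells, was lowest at 0.563 to 1.94 FPKM. The steps from Bpgm to Hk1, from Hk1 to Pgk1, from Gpi1 to Pfkl and from Pfkl to Hk2 held in 10 of 10 libraries.

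**Figure D1:**
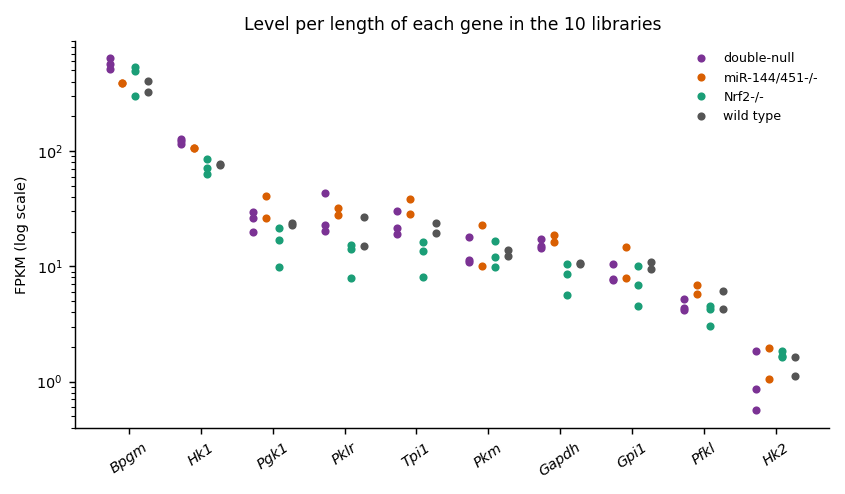
FPKM of each gene (log axis) in each of the 10 libraries, ordered by mean level, with points coloured by genotype. Bpgm, at 300.8 to 635.6 FPKM, and Hk1, at 63.7 to 126.9 FPKM, stand above the other 8 genes in every library.

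The order of the middle tier depends on the gene length the authors divided by. For Gapdh that length was 4133 bases, against 1420 bases for its longest coding transcript in GENCODE. With transcript lengths in place of the authors' lengths, Tpi1 moved to rank 3 (37.5), Gapdh to rank 4 (37.0) and Pgk1 to rank 5 (29.1, all as means of length-scaled counts), while Bpgm and Hk1 kept ranks 1 and 2. Pklr fell from rank 4 to rank 7 (25.1), below Pkm at rank 6 (28.4), so the order of the 2 pyruvate kinase genes reversed. Comparisons between genotypes do not use a length.

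The first comparison asks what loss of the miR-144/451 cluster does to these genes where Nrf2 is also absent. In double-null against Nrf2-/- libraries, 4 of the 10 genes rose and 0 fell: Hk1, Tpi1, Gapdh and Pklr, by 1.65-fold to 2.27-fold. They act at the entry, in the middle and at the last step of the pathway. Across all tested genes, 14.4% rose and 12.9% fell in the same comparison, 27.3% in all. The median log2 fold change was 0.5 over the 10 genes and 0.02 over all tested genes, and 9 of the 10 estimates were positive. The groups did not overlap for those 4 genes, against 23.4% of tested genes that were higher without overlap and 21.8% that were lower. Tests were edgeR's quasi-likelihood test with Benjamini-Hochberg adjustment over all 14110 genes and a threshold of 0.05, and levels between libraries are normalised CPM, library-scaled counts (CPM) adjusted with TMM factors. In bulk RNA, fewer cells of a type and less RNA per cell cannot be told apart.

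**Figure D2:**
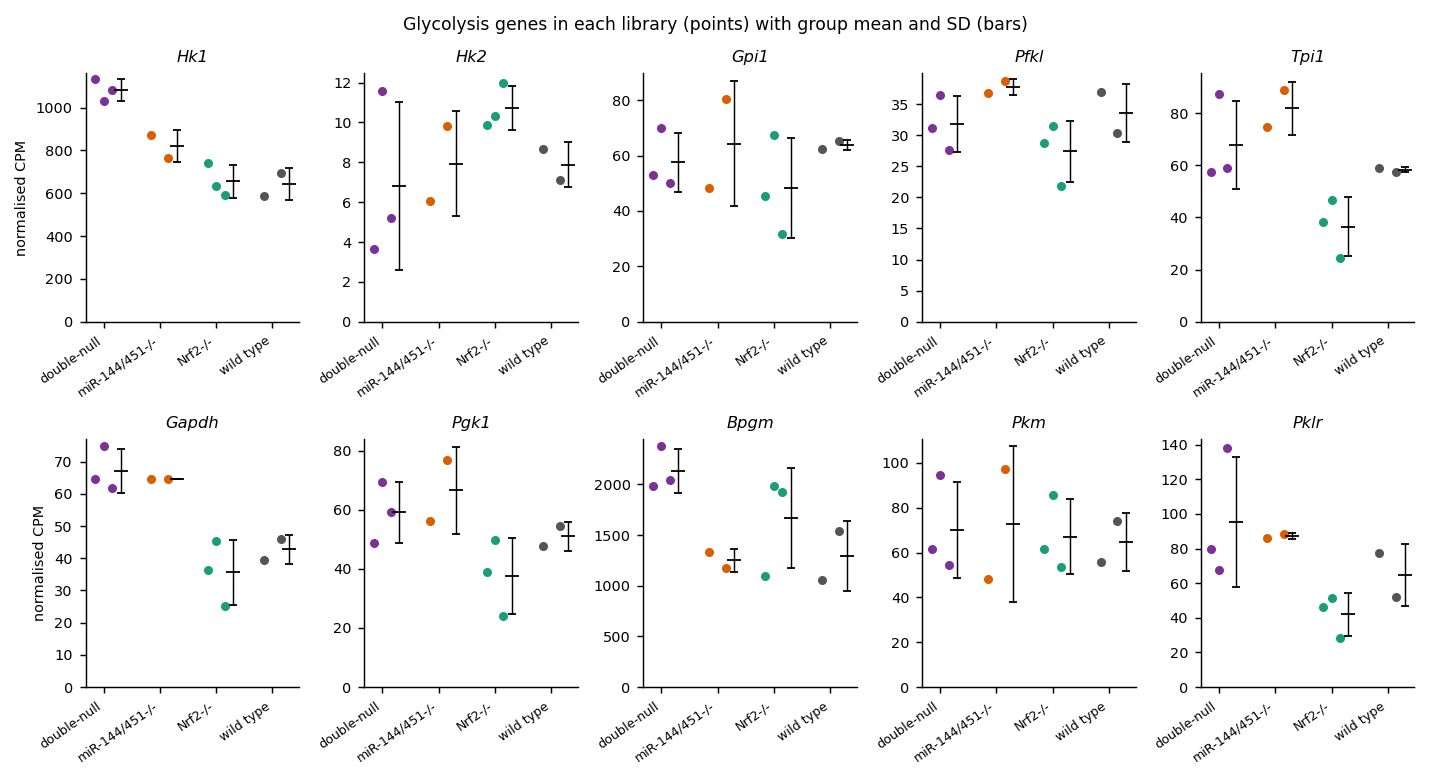
Normalised CPM (linear axes from 0) of each of the 10 genes in each library, by genotype, with the group mean and SD as bars (n = 3 double-null, 2 miR-144/451-/-, 3 Nrf2-/- and 2 wild type). Hk1, Tpi1, Gapdh and Pklr are higher in all 3 double-null than in all 3 Nrf2-/- libraries, and Nrf2-/- replicate 3 is the lowest library for 6 of the 10 genes.

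Hk1 had 1132, 1029 and 1080 normalised CPM in double-null libraries and 743.1, 632.2 and 592.0 in Nrf2-/- libraries. Every double-null library was above every Nrf2-/- library, and replicates within each group were close. This gave a log2 fold change of 0.72 ± 0.14 (SE, adjusted p = 0.00346). With Nrf2 present, Hk1 had 872.3 and 766.8 normalised CPM in miR-144/451-/- libraries and 589.2 and 694.1 in wild type libraries. Those groups did not overlap either, but the log2 fold change of 0.35 ± 0.17 missed the threshold (adjusted p = 0.298).

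Hk2 did not follow Hk1. Its normalised CPM was 3.64, 11.6 and 5.19 in double-null libraries and 9.89, 10.3 and 12.0 in Nrf2-/- libraries. Replicates 1 and 3 of the double-null group were low and replicate 2 lay among the Nrf2-/- values. The log2 fold change was -0.65 ± 0.38 (adjusted p = 0.219), with a 95% interval of -1.48 to 0.17. Without double-null replicate 2 it was -1.28 (adjusted p = 0.0118), so that library decided the call. At 49 to 167 counts per library, Hk2 was also the least deeply counted of the genes.

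Gpi1 turns the first sugar phosphate into its fructose isomer, and Pfkl catalyses the committed step of the pathway. Gpi1 had 52.9, 69.8 and 50.1 normalised CPM in double-null libraries and 45.4, 67.6 and 31.8 in Nrf2-/- libraries, and the groups overlapped. Its log2 fold change was 0.25 with a 95% interval of -0.35 to 0.86. Pfkl had 31.2, 36.5 and 27.6 in double-null and 28.8, 31.5 and 21.9 in Nrf2-/- libraries, with a log2 fold change of 0.21 and an interval of -0.16 to 0.58. In miR-144/451-/- against wild type, Pfkl had 36.8 and 38.7 against 36.9 and 30.3 normalised CPM, and its log2 fold change was 0.17 (interval -0.28 to 0.61). For this gene, which holds the miR-144-3p seed match, both estimates were positive and both intervals included 0. Whether the site acts was not tested.

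Tpi1, triose phosphate isomerase, interconverts the 3-carbon products of aldolase. It had 57.3, 87.2 and 59.1 normalised CPM in double-null libraries and 38.1, 46.8 and 24.3 in Nrf2-/- libraries. The groups did not overlap, and replicate 2 was the highest library in both. The log2 fold change was 0.90 ± 0.23 (adjusted p = 0.0169). Without double-null replicate 2 it was 0.68 and missed the threshold (adjusted p = 0.0521).

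Gapdh carries out the oxidation step that makes NADH. It had 64.5, 74.7 and 61.7 normalised CPM in double-null libraries and 36.3, 45.3 and 25.3 in Nrf2-/- libraries. The lowest double-null library was well above the highest Nrf2-/- library, and the log2 fold change was 0.91 ± 0.19 (adjusted p = 0.00485). With Nrf2 present, Gapdh had 64.6 and 64.7 in miR-144/451-/- against 39.6 and 45.9 in wild type libraries. The log2 fold change of 0.60 ± 0.23 there had an unadjusted p of 0.0227 and an adjusted p of 0.177, so it failed the correction. Gapdh is often used as a reference gene, and here its level was higher in double-null than in Nrf2-/- libraries.

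Pgk1, phosphoglycerate kinase, makes the first ATP of the pathway and lies on the X chromosome. It had 48.8, 69.4 and 59.2 normalised CPM in double-null libraries and 38.8, 49.8 and 24.2 in Nrf2-/- libraries. The groups overlapped by 1 library, and the log2 fold change of 0.65 ± 0.24 stood just outside the threshold (adjusted p = 0.0702). It passed with DESeq2 (0.64, adjusted p = 0.0398), without the filter on low counts (0.67, adjusted p = 0.00149) and without Nrf2-/- replicate 2 (0.91, adjusted p = 0.0243). In edgeR it was weaker without Nrf2-/- replicate 3 (0.42, adjusted p = 0.171) and without double-null replicate 2 (0.52, adjusted p = 0.178). It also missed the threshold with a sex term (0.65, edgeR adjusted p = 0.14) and in the 7 male libraries (0.68, adjusted p = 0.151), among other settings.

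Bpgm, the enzyme of the side branch, had 1980, 2382 and 2043 normalised CPM in double-null libraries and 1099, 1983 and 1930 in Nrf2-/- libraries. Nrf2-/- replicate 1 was low, replicate 2 lay just inside the double-null range and replicate 3 just below it. Its log2 fold change was 0.35 ± 0.23 (adjusted p = 0.271).

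The pyruvate kinase genes Pkm and Pklr encode the last enzyme, which makes ATP and pyruvate. Pklr carries the red cell and liver forms, and Pkm the forms of muscle and of most other cells. Pklr had 79.8, 67.9 and 138.1 normalised CPM in double-null libraries and 46.2, 51.6 and 28.2 in Nrf2-/- libraries. The groups did not overlap, and double-null replicate 3 was by far the highest of the 10 libraries. The log2 fold change was 1.18 ± 0.30 (adjusted p = 0.0176). Without that library it was 0.84 (adjusted p = 0.0347). Pkm had 61.8, 94.6 and 54.3 normalised CPM in double-null libraries and 61.7, 85.9 and 53.6 in Nrf2-/- libraries. The groups overlapped almost fully, with a log2 fold change of 0.07 and a 95% interval of -0.61 to 0.74.

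Other measures moved with this comparison. Nrf2-/- replicate 3 was the lowest library for 6 of the 10 genes, and it also had the lowest sum of 10 neutrophil markers (125.3 normalised CPM) and the highest sum of 10 macrophage markers (1160) of all libraries. Without it, Hk1 (0.65, adjusted p = 0.0172), Tpi1 (0.67, 0.0378), Gapdh (0.71, 0.00927) and Pklr (0.96, 0.045) still passed the threshold, where each pair gives the log2 fold change and the adjusted p from edgeR. Of 10 B cell markers, 9 were lower in double-null than in Nrf2-/- libraries, with sums of 350.1 to 772.3 normalised CPM in double-null and 943.2 to 1084 in Nrf2-/- libraries. For 8 T cell markers the sums were 13.7 to 54.0 in double-null and 58.1 to 74.5 in Nrf2-/- libraries, with 1 lower. For 5 NK cell markers they were 2.23 to 11.8 in double-null and 13.4 to 26.5 in Nrf2-/- libraries, with 1 lower. Macrophage sums were 88.2 to 398.4 in double-null and 336.2 to 1160 in Nrf2-/- libraries, and neutrophil sums were 941.7 to 996.0 in double-null and 125.3 to 1047 in Nrf2-/- libraries, with no gene called in either list. Megakaryocyte and platelet markers summed to 148.4 to 197.9 in double-null and 70.9 to 107.5 in Nrf2-/- libraries, with 1 of 7 tested higher and 1 lower. Erythroid markers summed to 132453 to 162529 in double-null and 115675 to 150070 in Nrf2-/- libraries, with 3 of 11 lower and 0 higher. Globin genes took 9.85% to 12.17% of counts in double-null and 7.07% to 9.47% in Nrf2-/- libraries, and mitochondrial genes 1.22% to 1.41% in double-null and 0.84% to 1.02% in Nrf2-/- libraries. No marker on these lists was at 0 in all libraries. The part of these measures in the glycolysis result was not tested. Among the 7 male libraries alone, an added check, Hk1 (0.74), Tpi1 (1.02), Gapdh (0.99) and Pklr (0.84) again passed (edgeR adjusted p = 0.0111, 0.0402, 0.0157 and 0.0335).

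Because Hk1, Tpi1, Gapdh and Pklr moved together, their RefSeq promoters (300 bases each, most of them upstream of the start) are shown with 3 motifs in capitals, searched on both strands: the antioxidant response element core TGACNNNGC, the hypoxia response core (ACGTG or GCGTG) and the GATA core (AGATAA or TGATAA). For Hk1 the downstream of the 2 starts is shown, chosen because it holds an antioxidant response element core, while the upstream window (chr10:62379859-62380158) held none of the 3 motifs. For Pklr both starts are shown. As background, the upstream Pklr start gives the red cell form and the downstream start the liver form. Counts per gene do not show which start was used.
Hk1 downstream start, chr10:62340372-62340671, minus strand of GRCm38.p6: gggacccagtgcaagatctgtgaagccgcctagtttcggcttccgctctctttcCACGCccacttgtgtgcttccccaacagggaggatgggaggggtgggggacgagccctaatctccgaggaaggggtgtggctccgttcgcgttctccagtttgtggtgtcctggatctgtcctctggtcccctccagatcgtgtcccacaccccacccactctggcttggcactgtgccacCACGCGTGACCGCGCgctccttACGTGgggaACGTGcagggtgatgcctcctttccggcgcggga
Tpi1, chr6:124814109-124814408, minus strand of GRCm38.p6: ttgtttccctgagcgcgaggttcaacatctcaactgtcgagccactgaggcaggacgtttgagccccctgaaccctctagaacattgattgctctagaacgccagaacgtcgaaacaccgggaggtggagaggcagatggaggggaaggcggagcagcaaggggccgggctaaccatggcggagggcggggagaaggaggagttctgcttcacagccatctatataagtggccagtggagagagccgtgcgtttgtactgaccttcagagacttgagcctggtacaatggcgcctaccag
Gapdh, chr6:125165724-125166023, minus strand of GRCm38.p6: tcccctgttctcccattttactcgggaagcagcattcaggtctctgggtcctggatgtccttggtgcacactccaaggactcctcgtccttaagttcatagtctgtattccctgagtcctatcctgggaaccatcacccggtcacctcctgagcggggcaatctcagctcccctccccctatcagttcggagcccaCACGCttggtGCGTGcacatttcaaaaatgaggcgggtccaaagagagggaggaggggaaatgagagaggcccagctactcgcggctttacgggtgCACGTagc
Pklr upstream start, chr3:89135892-89136191, plus strand of GRCm38.p6: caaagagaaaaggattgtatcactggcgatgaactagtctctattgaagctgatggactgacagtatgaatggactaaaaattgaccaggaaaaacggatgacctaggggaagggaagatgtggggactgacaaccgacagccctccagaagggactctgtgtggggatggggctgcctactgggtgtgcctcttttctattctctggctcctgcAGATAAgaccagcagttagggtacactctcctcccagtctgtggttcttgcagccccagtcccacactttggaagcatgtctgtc
Pklr downstream start, chr3:89136373-89136672, plus strand of GRCm38.p6: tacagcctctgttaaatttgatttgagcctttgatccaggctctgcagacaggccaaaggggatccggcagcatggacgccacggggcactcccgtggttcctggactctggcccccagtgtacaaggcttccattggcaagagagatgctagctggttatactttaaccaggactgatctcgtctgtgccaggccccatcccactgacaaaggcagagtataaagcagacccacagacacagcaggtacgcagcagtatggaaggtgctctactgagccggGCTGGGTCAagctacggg
The Tpi1 window held none of the 3 motifs, and the Gapdh window held 3 hypoxia response cores. In Hk1 the antioxidant response element core overlapped a hypoxia response core. Of the 13 promoters of the 10 genes, 2 held the antioxidant response element core, 6 the hypoxia response core and 2 the GATA core. The same motifs were in 12.4%, 43.8% and 18.6% of 32851 RefSeq promoters of this length. None of these motifs was in the promoters of all 4 genes that rose.

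The second comparison removes the cluster while Nrf2 is kept. In miR-144/451-/- against wild type libraries, 0 of the 10 genes passed the threshold with edgeR, against 4.63% of tested genes called (2.4% higher and 2.23% lower), and Gapdh was the 1 gene with an unadjusted p under 0.05. DESeq2 also called 0. The median log2 fold change was 0.26 over the 10 genes and 0.02 over all tested genes, and 9 estimates were positive. The groups did not overlap, with miR-144/451-/- higher, for Hk1, Tpi1, Gapdh, Pgk1 and Pklr, a count of 5 set against 24.2% of tested genes, and none was lower without overlap, against 22.8%. These are the 4 genes that rose in the double-null comparison, with Pgk1 added.

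Tpi1 had 74.7 and 89.0 normalised CPM in miR-144/451-/- libraries and 59.1 and 57.6 in wild type libraries (log2 fold change 0.49, 95% interval -0.13 to 1.11). Pgk1 had 56.2 and 77.0 in miR-144/451-/- and 47.6 and 54.6 in wild type libraries (0.38, interval -0.27 to 1.04). Pklr had 86.2 and 88.4 in miR-144/451-/- and 77.3 and 52.1 in wild type libraries (0.43, interval -0.38 to 1.24). In each case both miR-144/451-/- libraries lay above both wild type libraries, and the interval included 0. Bpgm had 1332 and 1173 in miR-144/451-/- and 1053 and 1536 in wild type libraries, which overlapped (-0.05, interval -0.66 to 0.56). Hk2 (6.06 and 9.80 against 8.68 and 7.09), Gpi1 (48.4 and 80.3 against 62.5 and 65.1) and Pkm (48.3 and 97.3 against 55.8 and 74.1), given as normalised CPM in miR-144/451-/- against wild type, also overlapped. For all 3 the miR-144/451-/- replicates stood farther apart than the wild type replicates, and replicate 3 was the higher. That library was the highest of all 10 for 5 of the genes. The 10 B cell markers summed to 708.1 and 952.2 normalised CPM in miR-144/451-/- against 1246 and 1576 in wild type libraries, with 0 called, and the 10 neutrophil markers to 314.6 and 835.2 in miR-144/451-/- against 357.4 and 407.8 in wild type libraries. The 8 T cell markers summed to 29.8 and 50.3 in miR-144/451-/- against 87.8 and 58.6 in wild type libraries, and the megakaryocyte and platelet markers to 184.6 and 130.7 in miR-144/451-/- against 90.3 and 127.2 in wild type libraries. Mitochondrial genes took 1.58% and 1.8% of counts in miR-144/451-/- against 1.13% in each wild type library. Of 11 erythroid markers, 1 was lower. The part of these measures and of sex in the values was not tested beyond the fit with a sex term.

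Whether the effect of cluster loss differed with and without Nrf2 was tested as an interaction. None of the 10 genes passed (edgeR, 0 called, 0 with an unadjusted p under 0.05, against 0.0638% of tested genes called, 0.0283% upward and 0.0354% downward, and DESeq2 also called 0). The interaction was 0.37 for Hk1 with a 95% interval of -0.11 to 0.85, 0.41 for Tpi1 (-0.40 to 1.21), 0.31 for Gapdh (-0.33 to 0.95) and 0.75 for Pklr (-0.30 to 1.80), in log2 units. The calls made in the absence of Nrf2 are therefore not shown to be larger than the differences seen in its presence.

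**Figure D3:**
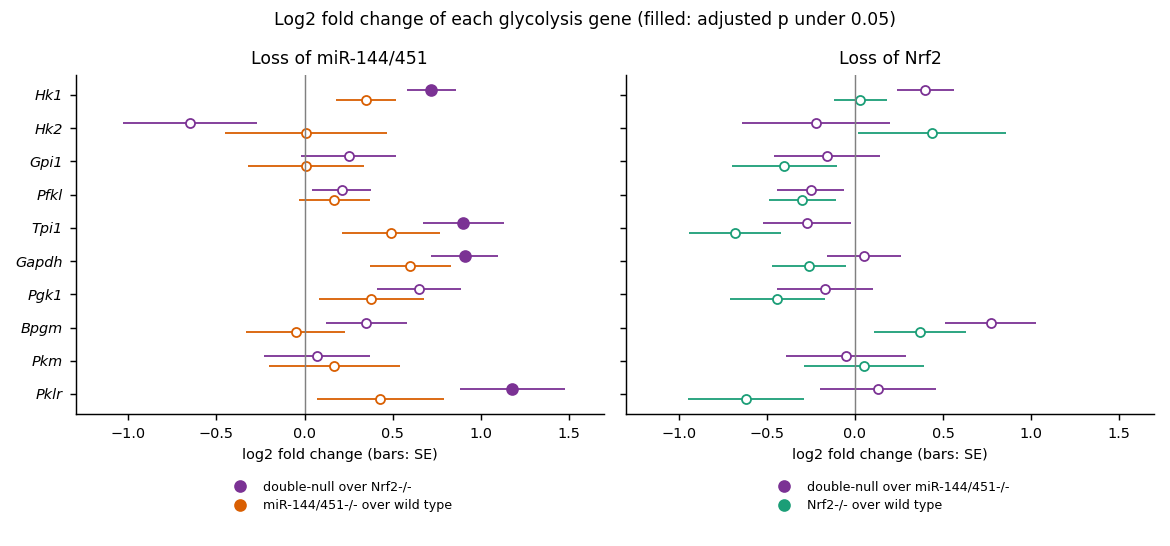
Log2 fold changes (points) with their SE (bars) of the 10 genes from edgeR, for loss of the cluster (left) and for loss of Nrf2 (right). The filled points, Hk1, Tpi1, Gapdh and Pklr in double-null over Nrf2-/-, passed the threshold, and no gene did in the other 3 comparisons.

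Loss of Nrf2 gave no call. In Nrf2-/- against wild type libraries, 0 of the 10 genes passed with edgeR (0.191% of tested genes did, 0.128% higher and 0.0638% lower, and 1 of the 10 had an unadjusted p under 0.05), and DESeq2 called 0. The median log2 fold change was -0.28 over the 10 genes and -0.02 over all tested genes. Tpi1 had 38.1, 46.8 and 24.3 normalised CPM in Nrf2-/- libraries and 59.1 and 57.6 in wild type libraries, and all Nrf2-/- libraries were lower. Its log2 fold change was -0.68 ± 0.26 (unadjusted p = 0.023, adjusted p = 0.366), and -0.46 without Nrf2-/- replicate 3. Pklr had 46.2, 51.6 and 28.2 in Nrf2-/- and 77.3 and 52.1 in wild type libraries, again without overlap but with replicates nearly touching (-0.62 ± 0.33, adjusted p = 0.47). Hk2 was the gene that was higher in Nrf2-/- without overlap, with 9.89, 10.3 and 12.0 normalised CPM against 8.68 and 7.09 in wild type libraries (0.44 ± 0.42, adjusted p = 0.682). Those counts, 1 higher and 2 lower of 10, stand beside 15.7% and 20.1% of tested genes. Macrophage sums were higher in Nrf2-/- libraries without overlap (336.2 to 1160 against 194.6 and 198.8 normalised CPM). So were NK cell sums (13.4 to 26.5 against 10.4 and 12.9). B cell sums (943.2 to 1084 against 1246 and 1576) and mitochondrial shares (0.84% to 1.02% against 1.13% in each) were lower. Erythroid, T cell, neutrophil and megakaryocyte sums and the globin share overlapped. The part of these measures and of sex was not tested beyond a sex term. Tpi1 (-0.66 ± 0.19, adjusted p = 0.0229) and Pklr (-0.61 ± 0.19, adjusted p = 0.0427) did pass in edgeR when the filter on low counts was left out. The estimates were nearly the same as above, with a smaller SE.

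In double-null against miR-144/451-/- libraries, 0 of the 10 genes passed with edgeR or with DESeq2, against 0.0638% of tested genes in edgeR (0.0496% higher and 0.0142% lower). Bpgm and Hk1 were the 2 genes with an unadjusted p under 0.05. Bpgm had 1980, 2382 and 2043 normalised CPM in double-null libraries and 1332 and 1173 in miR-144/451-/- libraries. Every double-null library was higher, by a log2 fold change of 0.77 ± 0.26 (unadjusted p = 0.0127, adjusted p = 0.36). Without the filter on low counts it passed, with a similar estimate and a smaller SE (0.75 ± 0.19, adjusted p = 0.00557). Erythroid markers summed to 132453 to 162529 normalised CPM in double-null against 93464 and 105195 in miR-144/451-/- libraries, and globin genes took 9.85% to 12.17% of counts in double-null against 7.92% and 7.99% in miR-144/451-/- libraries. Neither overlapped. Mitochondrial shares were lower in double-null libraries without overlap (1.22% to 1.41% against 1.58% and 1.8%). Neutrophil sums were higher without overlap (941.7 to 996.0 against 314.6 and 835.2 normalised CPM). B cell, T cell, NK cell, macrophage and megakaryocyte sums overlapped. The part of these measures in the Bpgm values was not tested. Hk1 was also higher without overlap (0.40 ± 0.16, adjusted p = 0.418). Pfkl was lower without overlap, at 31.2, 36.5 and 27.6 in double-null against 36.8 and 38.7 normalised CPM in miR-144/451-/- libraries (-0.25, interval -0.66 to 0.16). Higher without overlap was found for 12.1% of tested genes and lower for 12.4%. Gapdh differed by 0.05 (interval -0.40 to 0.50) and Pkm by -0.05 (interval -0.81 to 0.70) on the log2 scale.

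Ratios within a library do not depend on scaling between libraries and describe the balance of paired enzymes. They use the authors' lengths, such as 8532 bases for Hk1 and 5001 for Pkm. The longest coding transcripts of these 2 genes have 4278 and 2432 bases. The size of a ratio, and whether it lies above or below 1, can therefore depend on the length chosen. Differences between genotypes do not. Hk1 exceeded Hk2 per length by 61.9-fold to 217.4-fold in double-null libraries and by 34.5-fold to 52.6-fold in Nrf2-/- libraries, without overlap. It did so by 54.7-fold and 100.8-fold in miR-144/451-/- and by 47.5-fold and 68.5-fold in wild type libraries, which overlapped. Averaged over Nrf2 status, loss of the cluster moved the log2 ratio of Hk2 to Hk1 by -0.97. A two-sided exact permutation test within Nrf2 strata gave p = 0.05, where 0.0167 is the smallest it can give, and 0.15 after adjustment over 6 ratio tests. The log2 ratio of Pkm to Pklr was -1.0, -0.15 and -1.98 in double-null, -1.46 and -0.49 in miR-144/451-/-, -0.21, 0.11 and 0.30 in Nrf2-/- and -1.1 and -0.12 in wild type libraries. Double-null replicate 2 lay among the Nrf2-/- values. Loss of the cluster moved the ratio by -0.74 (exact permutation p = 0.117, adjusted p = 0.233). The ratio of Bpgm to Pgk1, the side branch set against the direct route, was 21.5 to 25.4 in double-null against 9.53 and 14.8 in miR-144/451-/- libraries, and 17.7 to 49.9 in Nrf2-/- against 13.8 and 17.6 in wild type libraries. Both Nrf2-null groups lay above their Nrf2-carrying counterparts without overlap, Nrf2-/- replicate 1 by the smallest margin. Averaged over cluster status, loss of Nrf2 moved the log2 ratio by 0.89 (exact permutation p = 0.03 over 100 arrangements, adjusted p = 0.15). The other 3 ratio tests had adjusted p-values of 0.425 to 0.69, and none of the 6 passed.

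How the reads were assigned bears on Gapdh above all. The mouse genome holds many processed copies of it, and 125 annotated pseudogenes shared at least 100 of their 31-base stretches with Gapdh, of which 72 had counts. Together they held 10354 counts against 7382 at Gapdh, or 58.4% of the sum. The most heavily counted were Gm7336 with 4232 counts, Gm5559 with 3013 and Gm9522 with 1647. With the copies added, Gapdh had 174.6, 188.8 and 163.6 normalised CPM in double-null libraries, 151.9 and 149.1 in miR-144/451-/-, 75.5, 92.5 and 64.5 in Nrf2-/- and 95.6 and 100.8 in wild type libraries. All 5 libraries without the cluster stood above all 5 libraries with it. The share of all tested genes that separated in this way is not given here. In this check, added after the data were seen, the log2 fold change was 1.18 for double-null against Nrf2-/- (edgeR adjusted p = 0.000221) and 0.62 for miR-144/451-/- against wild type (adjusted p = 0.0639). Counts alone do not show whether reads at the copies came from Gapdh messenger RNA. For the other 9 genes, pseudogenes held at most 1.6% of the summed counts.

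**Figure D4:**
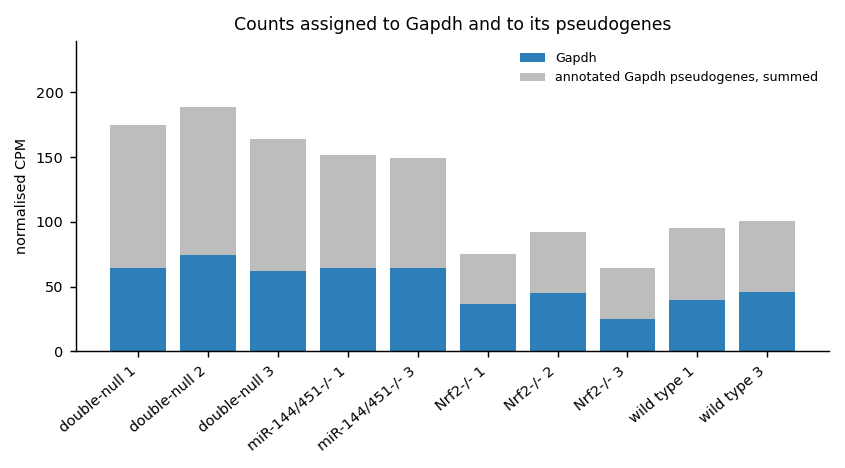
Normalised CPM at Gapdh (blue) and summed over its annotated pseudogenes (grey), stacked from 0 for each library. The stacked total is 149.1 to 188.8 in the 5 libraries without the cluster and 64.5 to 100.8 in the 5 libraries with it.

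Shared sequence also touched other genes. Of the 31-base stretches of Pgk1, 54.7% occurred in another gene, mainly the copies Pgk1-rs7 and Gm5537, which held 114 and 0 counts. For Pkm the share was 34.7%, for Gapdh 28.1%, for Gpi1 21.6%, for Pklr 21.1% and for Tpi1 10.5%. It was at most 1.5% for Hk1, Hk2, Pfkl and Bpgm, and 0 for Bpgm. On the opposite strand, Gapdh overlaps Iffo1 (2269 counts), Tpi1 overlaps Spsb2 (616), Hk1 overlaps Hk1os (284) and Pklr overlaps Hcn3 (194). Since no strand setting is known, reads in those overlaps could not be told apart. On the same strand, Pkm (9738 counts) overlaps Gm49759 (707 counts), which no strand setting could separate.

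The rest of the pathway was read from lists of related genes. Of 15 other glycolytic enzymes, 10 identifiers were tested, and 2 rose and 1 fell in double-null against Nrf2-/- libraries, close to the 14.4% and 12.9% of all tested genes. The list's median log2 fold change was -0.04, near the 0.02 of all tested genes. Aldoa, the aldolase that supplies Tpi1, had 165.8, 217.9 and 146.6 normalised CPM in double-null libraries, 179.7 and 153.7 in miR-144/451-/-, 58.2, 66.7 and 41.8 in Nrf2-/- and 71.4 and 101.6 in wild type libraries. All libraries without the cluster were above all libraries with it, and in double-null against Nrf2-/- the log2 fold change was 1.67 ± 0.21 (edgeR adjusted p = 0.000391). A second identifier with the symbol Aldoa, ENSMUSG00000114515, had 21 to 52 counts per library and moved the other way (-0.92 ± 0.28, adjusted p = 0.0324), so reads of this gene are uncertain. Eno1, the enolase gene, had 134.7, 185.4 and 112.0 in double-null and 88.3, 96.5 and 47.7 normalised CPM in Nrf2-/- libraries (0.89 ± 0.28, adjusted p = 0.0403). Its call was lost without Nrf2-/- replicate 3 (0.64, adjusted p = 0.0807) and without double-null replicate 2 (0.67, adjusted p = 0.112), among others.

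Some genes for the entry of glucose and the exit of lactate fell. Of 9 tested genes of transport and lactate dehydrogenase, 1 rose and 3 fell in double-null against Nrf2-/- libraries, and 0 rose and 2 fell in miR-144/451-/- against wild type libraries. Among all tested genes 14.4% rose and 12.9% fell in the first comparison, and 2.4% rose and 2.23% fell in the second. The medians of the list, 0.53 and -0.02 on the log2 scale, do not follow those falls. Slc2a4, the insulin-responsive glucose transporter GLUT4, had 44.3, 29.5 and 29.5 normalised CPM in double-null libraries and 183.4, 145.8 and 138.9 in Nrf2-/- libraries. This was a log2 fold change of -2.18 ± 0.20 (adjusted p = 6.5e-05). It had 32.2 and 32.3 in miR-144/451-/- and 109.6 and 153.6 in wild type libraries (-2.03 ± 0.24, adjusted p = 0.00305). All 5 libraries without the cluster lay far below the other 5. Genes of these lists were named for a small p in these same comparisons, so such a separation is in part a result of that choice. For none of them, Aldoa included, is the share of all tested genes that separate by cluster status given here.

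Slc16a1, the lactate and pyruvate carrier MCT1, showed the same order. It had 464.4, 396.3 and 421.2 normalised CPM in double-null and 881.3, 810.9 and 945.8 in Nrf2-/- libraries (-1.04 ± 0.15, edgeR adjusted p = 0.000566). In miR-144/451-/- libraries it had 350.0 and 404.0, against 646.9 and 848.1 in wild type libraries (-0.99 ± 0.18, adjusted p = 0.0123). Slc16a7, another carrier of this family, fell at a low level, with 0.669, 1.29 and 1.15 in double-null against 2.76, 3.16 and 4.28 normalised CPM in Nrf2-/- libraries (-1.70 ± 0.43, adjusted p = 0.0132). Slc2a3, the high-affinity glucose transporter GLUT3, rose, with 38.2, 65.3 and 73.6 in double-null and 26.2, 32.8 and 15.6 normalised CPM in Nrf2-/- libraries (1.25 ± 0.29, adjusted p = 0.011). Slc16a1 missed the threshold in miR-144/451-/- against wild type without wild type replicate 3 (-0.77, adjusted p = 0.103) and without miR-144/451-/- replicate 1 (-0.88, adjusted p = 0.102). In the 7 male libraries, Slc2a3 (1.09, adjusted p = 0.0519) and Slc16a7 (-1.76, adjusted p = 0.0581) missed it in double-null against Nrf2-/-. With a sex term in the fit, Slc2a4 (-2.35, adjusted p = 0.113) and Slc16a1 (-1.02, adjusted p = 0.275) kept their sign but missed the threshold in miR-144/451-/- against wild type.

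Of 16 tested regulators of flux into and after glycolysis, 5 rose and 3 fell in double-null against Nrf2-/- libraries, and 0 rose and 1 fell in miR-144/451-/- against wild type. The shares of all tested genes were 14.4% higher and 12.9% lower in the first comparison, and 2.4% and 2.23% in the second. The list's medians were 0.24 and 0.30 on the log2 scale, against 0.02 for all tested genes in both comparisons. Pdk1, the kinase that switches off pyruvate dehydrogenase, had 36.9, 36.2 and 36.0 normalised CPM in double-null and 15.5, 17.8 and 11.1 in Nrf2-/- libraries (1.30 ± 0.20, adjusted p = 0.000984). Double-null replicates were nearly equal and lay within the wild type range of 25.5 to 39.4, while the Nrf2-/- libraries were below it. Pdhb, a subunit of pyruvate dehydrogenase, rose (0.89 ± 0.16, adjusted p = 0.00239), and Pdp1, the phosphatase that opposes Pdk1, fell (-1.37 ± 0.25, adjusted p = 0.00288). Pfkfb1, which makes and removes an activator of phosphofructokinase, also fell (-0.83 ± 0.20, edgeR adjusted p = 0.0119).

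Pgp, a phosphatase of phosphoglycolate and of glycerol phosphate, had 50.0, 43.3 and 55.2 normalised CPM in double-null and 74.7, 71.5 and 112.0 in Nrf2-/- libraries (-0.80 ± 0.17, edgeR adjusted p = 0.00631). It had 43.3 and 45.3 in miR-144/451-/- and 88.3 and 87.8 in wild type libraries (-0.99 ± 0.21, adjusted p = 0.025). All libraries without the cluster were below all libraries with it. In the second comparison the call was lost without any 1 of the 4 libraries compared (-1.0 to -0.95, adjusted p of 0.0951 to 0.143) and with a sex term (-0.75, adjusted p = 0.47).

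**Figure D5:**
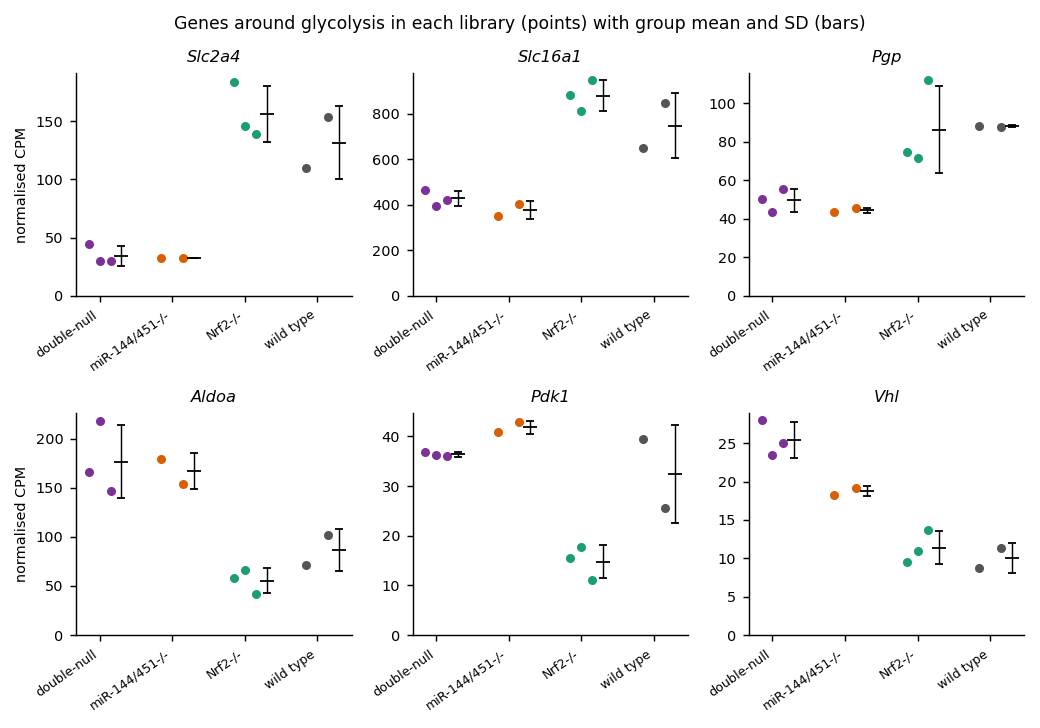
Normalised CPM (linear axes from 0) of 6 genes around glycolysis in each library, by genotype, with group mean and SD as bars (n = 3 double-null, 2 miR-144/451-/-, 3 Nrf2-/- and 2 wild type). Slc2a4, Slc16a1 and Pgp are lower, and Aldoa and Vhl higher, in all libraries without the cluster than in all libraries with it, while Pdk1 in wild type libraries (25.5 and 39.4) reaches the double-null level.

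The hypoxia-inducible factors, which switch on many glycolysis genes when oxygen is short, gave 14 tested genes of their own subunits, regulators and targets outside glycolysis. Of these, 3 rose and 0 fell in double-null against Nrf2-/- libraries, and 1 rose in miR-144/451-/- against wild type. Of all tested genes, 14.4% rose in the first and 2.4% in the second comparison. The list's medians were 0.43 and 0.25 on the log2 scale. Vhl, which marks the alpha subunits for degradation, had 28.0, 23.4 and 25.0 normalised CPM in double-null and 9.49, 11.0 and 13.7 in Nrf2-/- libraries (1.16 ± 0.18, adjusted p = 0.00118). It had 18.3 and 19.2 in miR-144/451-/- and 8.68 and 11.4 in wild type libraries (0.91 ± 0.22, adjusted p = 0.0446), and that second call did not hold. It was lost without any 1 of the 4 libraries compared (0.72 to 1.12, adjusted p of 0.121 to 0.263), with a sex term (0.87, adjusted p = 0.443) and with RLE factors (0.89, edgeR adjusted p = 0.0552), among others. Arnt, the shared beta subunit, rose in double-null against Nrf2-/- libraries (0.50 ± 0.12, adjusted p = 0.00997), as did Ero1l, an oxidase of the endoplasmic reticulum (0.60 ± 0.19, edgeR adjusted p = 0.0375). The call of Ero1l was lost without Nrf2-/- replicate 3 (0.38, adjusted p = 0.0663) and in several other settings. No gene of the 4 lists passed in Nrf2-/- against wild type, in double-null against miR-144/451-/- or in the interaction.

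The genes whose log2 CPM most resembled Gapdh over the 10 libraries were Glrx and Abcf3 (Pearson r = 0.978 each), Arl6ip5 (0.977), Ankzf1 (0.974) and Aldoa (0.972). Those most like Bpgm were Hbb-bs (0.971) and Hba-a1 (0.948), the major globin genes, then Gabarapl2 (0.946), Dnajc28 (0.927) and Bnip3l (0.9), a mitophagy receptor of maturing red cells. These values describe 10 libraries that share their genotypes and depth, among all tested genes with a mean of at least 10 CPM, and carry no test.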

How the data were processed

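The authors deposited raw counts per Ensembl gene and, per library, FPKM values. Each of 112994 FPKM values compared equalled, within 0.1%, the count over the library total and over a gene length. Per the submitters' processing notes, the build was mm9 and the tools were HISAT2 2.1.0, Bowtie2 2.2.3, TopHat2 and CASAVA, with no role named. What counted the reads, on which annotation and with which strand setting, is not given in the sources used here. Symbols, UTRs and coordinates came from GENCODE M21 (GRCm38) through Ensembl identifiers, of which 99.8% matched, so no coordinate is from mm9. Promoters and microRNAs came from RefSeq.

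All 10 libraries entered a fit in edgeR 4.0.16 (R 4.3.3) with a coefficient per genotype, TMM factors and filterByExpr. The robust quasi-likelihood test (two-sided, 6 residual degrees of freedom) was called at a Benjamini-Hochberg adjusted p under 0.05 over 14110 genes. DESeq2 1.42.0 was an alternative. Scripts were tested on simulated data. Replicates differed by more than sampling noise (chi-square per degree of freedom 17.3 to 30.4).

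The 10 genes, the 4 pathway lists and the markers were chosen with earlier results of these data known. All 10 genes are named in each comparison, and of each list up to 5 genes past the threshold by smallest p. Likeness to Gapdh and Bpgm left out predicted genes.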

Additional observations from a re-analysis of the deposited data

How the results depend on the processing

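In double-null against Nrf2-/-, 4 or 5 of the 10 genes were called under each alternative that was run. Without double-null replicate 2 these were 3 higher and 1 lower (Hk2). Leaving out the filter on low counts raised the calls to 2 in Nrf2-/- against wild type and to 1 in double-null against miR-144/451-/-. The estimates of those genes barely moved while their SE fell. For Pklr in Nrf2-/- against wild type they were -0.62 ± 0.33 with the filter and -0.61 ± 0.19 without it. The cause was not tested. Shares of all genes called are given for the main fit only, not for the alternatives. The replicate numbers did not pair libraries (13 same-number pairs, r from -0.111 to 0.287, 1 above 0.1). With a replicate block, Pgk1 passed in double-null against Nrf2-/- (0.67, adjusted p = 0.0422), Vhl missed the threshold in miR-144/451-/- against wild type (0.91, adjusted p = 0.0685) and 5 genes were called.

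With no scaling factors the median log2 fold change of all tested genes moved to 0.15 in miR-144/451-/- against wild type, -0.12 in Nrf2-/- against wild type, -0.24 in double-null against miR-144/451-/-, -0.10 in the interaction and 0.03 in double-null against Nrf2-/-, so the signs under that setting are to be read against those medians. Values below are log2 fold changes that changed sign, all of genes that did not pass, and the cause was not tested. In miR-144/451-/- against wild type, Hk2 and Gpi1 were each -0.01 with RLE factors and with DESeq2, Hk2 was -0.04 with the replicate block, and Bpgm was 0.09 with no scaling. With a sex term, Hk2 was -0.55, Gpi1 -0.28, Pfkl -0.13 and Pkm -0.36. In Nrf2-/- against wild type, Hk1 was -0.06 and Pkm -0.04 with no scaling, Pkm was -0.17 with the replicate block, and Hk2 was -0.11, Pkm -0.48 and Pklr 0.28 with a sex term. In double-null against miR-144/451-/-, Gapdh was -0.17 and Pklr -0.08 with no scaling, and Gapdh -0.09 with the replicate block. Pkm was 0.10 and Pklr -0.24 with a sex term, and 0.12 and -0.23 in the 7 male libraries. In the interaction, Pfkl was -0.06 with no scaling, and Hk2 was 0.05, Pkm 0.58 and Pklr -0.52 with a sex term.

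Leaving out each library in turn gave ranges that crossed 0. In miR-144/451-/- against wild type these were -0.36 to 0.32 for Hk2, -0.37 to 0.34 for Gpi1, -0.29 to 0.26 for Bpgm and -0.40 to 0.59 for Pkm. For double-null against Nrf2-/- the range was -0.21 to 0.28 for Pkm. In Nrf2-/- against wild type they were -0.07 to 0.15 for Hk1 and -0.17 to 0.26 for Pkm. In double-null against miR-144/451-/- they were -0.85 to 0.14 for Hk2, -0.48 to 0.22 for Gpi1, -0.03 to 0.12 for Gapdh, -0.38 to 0.05 for Pgk1, -0.48 to 0.51 for Pkm and -0.23 to 0.32 for Pklr. In the interaction they were -0.08 to 0.62 for Gpi1, -0.11 to 0.18 for Pfkl and -0.52 to 0.46 for Pkm, and the effect of Nrf2 loss on the log2 ratio of Hk2 to Hk1 ranged from -0.42 to 0.05. Double-null against Nrf2-/- stayed positive at 0.65 to 0.82 for Hk1, 0.67 to 1.12 for Tpi1, 0.71 to 1.12 for Gapdh and 0.84 to 1.38 for Pklr.

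The second Aldoa identifier lost its call under 5 settings other than left-out libraries. Hk2, with 49 to 167 counts per library, is the gene most limited by depth.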
